A study of Rattus norvegicus with 17 samples.

Results

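Transcript levels in 4 rat tumours given NVP-BEZ235 at 30 mg/kg were compared with those in 4 tumours from control rats. The 8 samples were chosen by their labels, as all samples at 30 mg/kg (replicates 1 to 4) and the controls numbered 1 to 4, out of 17 samples in the series. NVP-BEZ235 inhibits phosphoinositide 3-kinase (PI3K) and mTOR, and the controls received polyethylene glycol (PEG) at 20 mg/kg. All rats were 8 months old, on a mixed Sprague-Dawley white eye and Wistar-Kyoto background. All carried a mutation of Cdkn1b, written p27Kip1 (Cdknb1) in the labels, which encodes the cell cycle inhibitor p27. The sample labels call it homozygous and the series design calls it heterozygous. The 4 controls were female, and the treated samples were 3 female and 1 male (replicate 4). The tissue is labelled pituitary adenoma, whereas the series title speaks of pheochromocytoma, a tumour of the adrenal chromaffin cells. The length of treatment is not in the labels, whose protocol field for treatment names none. They do not state whether the samples are from different rats, and the p-values cover only the variation among the arrayed samples, which may be technical. Expression was measured on Affymetrix arrays and is given as the deposited log2 values, where a difference of 1 is a factor of 2. Changes are 30 mg/kg minus control with their SE, from 4 samples in each group. All 14506 genes named by a probe set with a single symbol were tested.

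PI3K and mTOR pass on signals from insulin and growth factor receptors, and drive protein and lipid synthesis and cell growth. When they are blocked, FOXO transcription factors enter the nucleus, where they switch on genes of receptors and of growth arrest, and feedback on other kinase pathways can be released. Chromaffin cells make catecholamines with the enzymes tyrosine hydroxylase (Th), aromatic amino acid decarboxylase (Ddc) and dopamine beta-hydroxylase (Dbh). They store them with granins and neuropeptides in dense vesicles. The surrounding adrenal cortex makes steroids.

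At 30 mg/kg, several genes of antigen presentation on class II molecules and several interferon-induced genes were lower than in the controls, together with the eotaxin gene Ccl11 and the norepinephrine transporter gene Slc6a2. The neuropeptide genes Agrp and Npy, the phosphodiesterase gene Pde10a, the gene of the endoplasmic reticulum transcription factor Creb3l1 and the lysosomal genes Ctsl and Gpnmb were higher. In limma's moderated test, 62 of the 14506 genes passed an adjusted p of 0.05, which is 0.427%. Of these, 19 were higher (0.131%) and 43 lower (0.296%), and 58 differed at least 2-fold, 15 of them higher and 43 lower. In all 62 the highest sample of one group lay below the lowest of the other. Over all genes, 502 (3.46%) lay wholly above the controls and 510 (3.52%) wholly below them, and the median change was -0.005.

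**Figure D1:**
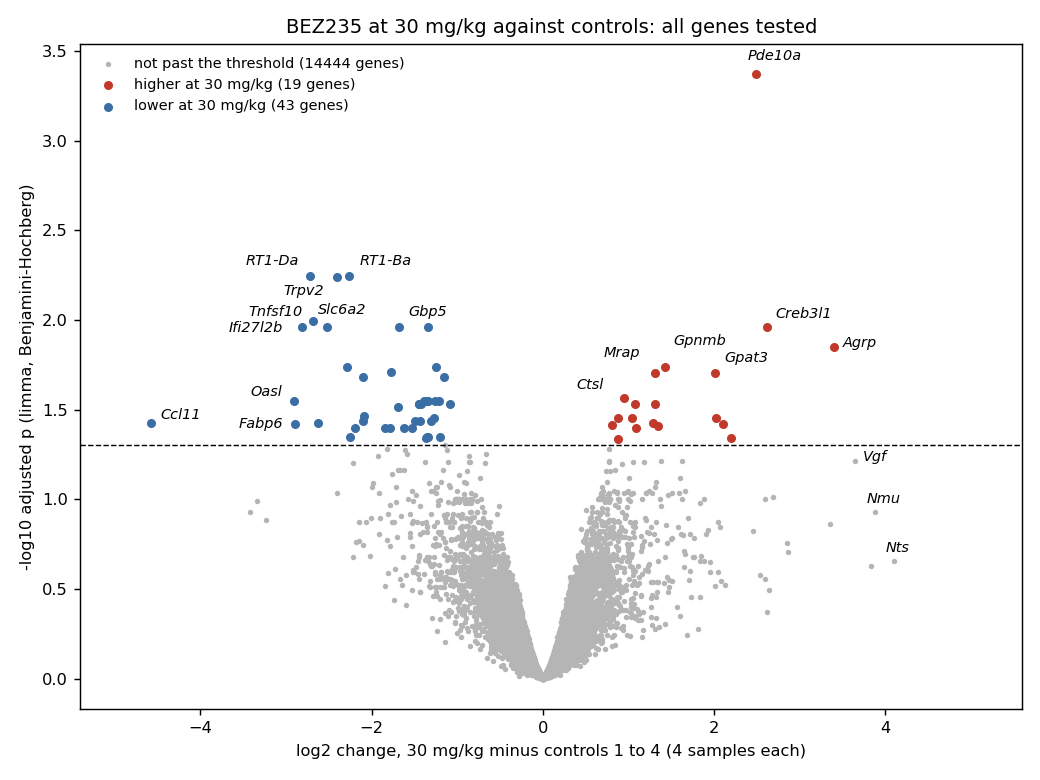
Each point is 1 of the 14506 genes, with the log2 change (30 mg/kg minus controls, 4 samples each) on the x axis and the negative log10 of the adjusted p on the y axis. The dashed line marks an adjusted p of 0.05, and the 43 genes lower and the 19 genes higher at 30 mg/kg lie above it. Nts, Nmu and Vgf, among the largest increases in mean, lie below it.

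The number of genes past the threshold rested on each of several samples. Leaving out controls 1, 2, 3 and 4 in turn gave 47, 18, 4 and 25 genes, and leaving out treated replicates 1, 2, 3 and 4 in turn gave 122, 41, 13 and 16. Every one of the 62 genes kept its sign in each of these fits. Pde10a, RT1-Ba, RT1-Da and Trpv2 passed in all 8 of them, and 6 further genes (Creb3l1, Gbp5, Ifi27l2b, RT1-Db1, Slc6a2 and Tnfsf10) in 7. Most of the 62 passed in few: 12 genes in 3 of these fits, 22 in 2, 11 in 1 and 2 in none. A term for the sex of the rat was no separate check, because treated replicate 4 was the only male. Such a term sets that sample aside, and 16 genes passed, as without it, 14 of them among the 62. When the other 9 samples were fitted with these 8 in 4 groups that shared an estimate of the spread, 529 genes (3.65%) passed, 276 higher (1.9%) and 253 lower (1.74%), including 61 of the 62.

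The treated samples differed in their distance from the controls. On the first principal component, which held 37.1% of the variance, the controls lay at -16.99, -24.09, -21.7 and -29.55, and the treated samples at 0.96, 6.04, 37.32 and 48. Treated replicates 3 and 4 were thus the farthest from the controls, and replicates 1 and 2 lay between. Without replicates 3 and 4, 5 genes passed (3 higher, 2 lower), of which only Pde10a and RT1-Ba were among the 62. Correlations between arrays were 0.965 to 0.977 among the controls, 0.956 to 0.978 among the treated samples, and 0.932 to 0.971 between the groups. Gene by gene the spread was similar, with a median SD of 0.247 in the controls and 0.253 in the treated samples.

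The tissue was checked against marker lists. Transcripts of chromaffin cells and of the adrenal cortex were both abundant. Th had log2 values of 12.02, 12.34, 12.25 and 11.99 in controls 1 to 4 and 12.61, 12.35, 12.39 and 12.72 in the treated samples, and Dbh had 12.37, 12.59, 12.41 and 12.41 against 12.61, 12.45, 12.59 and 12.57. Cyp11a1, the enzyme of the first step of steroid synthesis, had 12.47, 12.25, 12.08 and 12.31 in the controls and 12.17, 12.26, 12.05 and 11.97 in the treated samples. In contrast, 1 of 13 anterior pituitary markers lay above the median of the tested genes, the mean of that list was 4.28 to 4.57 in the controls and 4.25 to 4.51 in the treated samples, and Pou1f1, a pituitary transcription factor gene, lay below the lower quartile of every array. These values go against the pituitary origin in the tissue label. The samples are called tumours here because the label and the series title each name a tumour, and the marker lists did not test that. The mutated gene had Cdkn1b values of 8.23, 8.51, 8.49 and 7.91 in the controls and 8.54, 7.85, 8.18 and 8.37 in the treated samples, which overlapped (change -0.05 ± 0.20 SE, adjusted p = 0.946).

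Class II molecules are dimers of an alpha and a beta chain that present peptides to helper T cells, and RT1-D and RT1-B are the 2 classical kinds in the rat. Genes of both chains of both kinds fell at 30 mg/kg. For the alpha chain gene RT1-Da the values were 9.89, 9.53, 9.82 and 9.22 in controls 1 to 4 and 7.62, 6.64, 6.56 and 6.79 in treated replicates 1 to 4. Every treated sample lay at least 1 unit below every control, and replicate 1 was the highest of the treated samples. RT1-Da fell 6.57-fold (change -2.72 ± 0.25 SE, adjusted p = 0.00569). The other alpha chain gene, RT1-Ba, had 8.66, 8.50, 8.12 and 8.54 in the controls and 6.59, 6.30, 5.70 and 6.20 at 30 mg/kg. It fell by a similar amount (change -2.26 ± 0.20 SE, adjusted p = 0.00569). The beta chain gene RT1-Bb had 8.21, 8.15, 7.77 and 8.04 against 6.95, 6.17, 6.02 and 5.91 (change -1.78 ± 0.23 SE, adjusted p = 0.0195), and the beta chain gene RT1-Db1 had 7.54, 7.35, 7.34 and 7.17 against 6.21, 6.16, 5.89 and 5.77 (change -1.34 ± 0.15 SE, adjusted p = 0.0109).

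Cd74 encodes the invariant chain, which holds class II dimers until they reach the compartment of peptide loading. Its values were 11.51, 11.04, 11.10 and 11.31 in the controls and 10.22, 9.01, 8.10 and 8.62 in the treated samples. The controls lay close together and the treated samples were spread widely, with replicate 1 nearest to the controls (change -2.26 ± 0.38 SE, adjusted p = 0.0447). RT1-DMa and RT1-DMb, whose product loads the peptide, did not pass (changes -1.03, adjusted p = 0.215, and -1.12, adjusted p = 0.218). Ciita, the gene of the transcriptional activator of class II genes, had 4.57, 4.40, 4.21 and 4.16 in the controls and 4.59, 4.59, 4.37 and 4.20 in the treated samples. Those values lay below the array median and overlapped (change 0.10 ± 0.15 SE, adjusted p = 0.85). In all, 5 of 12 measured class II genes passed, all lower, against 0.427% of all genes, and the median change of the list was -1.07. The list mean was 7.27 to 7.65 in the controls and 6.05 to 6.71 in the treated samples. Of the 8 fits that left out a sample, RT1-Bb passed in 3 and Cd74 in 1, and RT1-Db1 was lost without control replicate 3 alone. The chain genes resemble each other, and the extent of cross-hybridisation between them was not tested.

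The promoters of these 4 chain genes are shown because they share an element. The Y box, searched as CTGATTGG on either strand, is an inverted CCAAT box that class II promoters are known for, and it was added to the motifs after the values were seen. Each sequence is RefSeq's, in build GRCr8, 5′ to 3′ on the gene's strand, cut to the bases around the match, which is in capitals. Those of RT1-Da and RT1-Ba run to the base before the transcription start, and those of RT1-Bb and RT1-Db1 stop short of it.
RT1-Da, chr20:4515318-4515414, plus strand: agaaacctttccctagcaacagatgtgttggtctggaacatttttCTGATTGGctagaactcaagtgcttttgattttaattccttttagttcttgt
RT1-Ba, chr20:4576966-4577056, plus strand: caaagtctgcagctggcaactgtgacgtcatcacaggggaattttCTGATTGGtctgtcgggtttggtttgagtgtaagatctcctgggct
RT1-Bb, chr20:4604130-4604227, minus strand: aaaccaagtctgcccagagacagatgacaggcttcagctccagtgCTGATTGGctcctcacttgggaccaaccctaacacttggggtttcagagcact
RT1-Db1, chr20:4560193-4560290, minus strand: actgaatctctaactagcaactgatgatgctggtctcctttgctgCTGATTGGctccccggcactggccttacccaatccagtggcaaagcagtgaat
The matches began 52, 46, 64 and 83 bases before the start, in that order. Of the 12 class II genes, 10 had a promoter sequence, and 5 of these held the letters, against 535 of 11968 promoters of tested genes (4.47%). The promoters of Cd74, which also fell, and of RT1-DMa held no match. The same letters were in 10 of 34 promoters of genes of mitosis (29.4%), which passed in none. A match is a description of the sequence and shows no binding.

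Interferon-induced genes, whose products restrict viruses and intracellular microbes, were lower as a list too. Of 40 measured, 6 passed, all lower, against 0.427% of all genes. In that list 17 lay wholly below the controls (42.5%, against 3.52% of all genes), and the median change was -0.65. The list mean was 6.32 to 6.82 in the controls and 5.62 to 5.88 in the treated samples. Oasl, a relative of the oligoadenylate synthetases, had 8.14, 6.86, 8.08 and 6.08 in the controls and 4.43, 4.29, 4.64 and 4.16 at 30 mg/kg. The controls spanned about 2 units while the treated samples lay together below the array median of 5.01 to 5.11 (change -2.91 ± 0.42 SE, adjusted p = 0.0284). Ifi27l2b had 11.79, 10.93, 11.84 and 11.01 against 8.23, 9.41, 8.60 and 8.07, with treated replicate 2 the highest (change -2.82 ± 0.32 SE, adjusted p = 0.0109). Rtp4, a chaperone of receptors that interferon induces, had 7.13, 6.19, 6.94 and 6.68 against 5.26, 4.20, 4.09 and 4.27. There too the groups were apart, and treated replicate 1 stood above the other 3 (change -2.28 ± 0.29 SE, adjusted p = 0.0183). The GTPase gene Ifi47 had 10.05, 8.33, 8.93 and 8.97 against 6.99, 7.41, 6.90 and 6.595 (change -2.10 ± 0.33 SE, adjusted p = 0.0364). Gbp5, a guanylate-binding protein gene, had 6.21, 6.31, 6.24 and 6.70 against 5.06, 4.83, 4.38 and 4.50 (change -1.68 ± 0.19 SE, adjusted p = 0.0109), and the antiviral GTPase gene Mx2 had 6.27, 5.32, 5.72 and 6.28 against 4.41, 4.77, 3.82 and 4.10 (change -1.62 ± 0.27 SE, adjusted p = 0.04). Of the 8 fits that left out a sample, Gbp5 and Ifi27l2b passed in 7 (all but that without control replicate 3), Rtp4 in 4, Oasl and Ifi47 in 3 and Mx2 in 1.

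Members that did not pass lay mostly on the same side of 0. The change of Gbp2 was -1.37 (adjusted p = 0.0617), that of Irgm -1.71 (adjusted p = 0.0857) and that of Bst2 -1.40 (adjusted p = 0.152), and in each the groups did not overlap. Isg15, a ubiquitin-like modifier, spread widely in both groups, with 8.997, 6.06, 8.56 and 8.30 in the controls and 7.34, 5.24, 6.17 and 6.59 at 30 mg/kg, and did not pass (change -1.65, adjusted p = 0.301). The transcription factor genes Irf7 (-0.52, adjusted p = 0.4) and Stat2 (-0.68, adjusted p = 0.188) did not pass and their groups overlapped. Genes outside the list with a known response to interferon also passed. Psmb9, a catalytic subunit of the immunoproteasome that cuts peptides for presentation, had 8.60, 8.36, 8.59 and 8.24 in the controls and 7.24, 7.17, 7.17 and 6.09 at 30 mg/kg (change -1.53 ± 0.25 SE, adjusted p = 0.04). Its partners Psmb8 (-1.11, adjusted p = 0.103) and Psmb10 (-0.95, adjusted p = 0.0993) did not pass, although both lay wholly below the controls. Tnfsf10, the gene of the death ligand TRAIL, had 7.60, 7.22, 7.73 and 6.98 against 5.31, 4.72, 4.82 and 3.95 (change -2.69 ± 0.28 SE, adjusted p = 0.0102). Oas1f fell by 1.43 (adjusted p = 0.0296) and Lgals3bp, which encodes a secreted glycoprotein, by 1.26 (adjusted p = 0.0284). When 1 sample was left out, Tnfsf10 passed in 7 of the 8 fits, Lgals3bp in 3, and Psmb9 and Oas1f in 2. Oas1f, Gbp2 and Gbp5 have close paralogs, and cross-hybridisation was not tested.

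The interferon-stimulated response element was searched as GAAA, any 2 bases and GAAA again, on either strand. It was in 20 of the 29 promoters of the interferon list that could be read (69.0%), against 408 of 11968 (3.41%) over all tested genes, and in 3 of 32 promoters of the genes that fell (9.38%). A pair of genes that fell is shown, with the match in capitals.
Gbp5, chr2:233910898-233910997, plus strand: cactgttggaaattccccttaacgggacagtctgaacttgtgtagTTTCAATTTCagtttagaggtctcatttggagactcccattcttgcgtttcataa
Lgals3bp, chr10:104127849-104127943, minus strand: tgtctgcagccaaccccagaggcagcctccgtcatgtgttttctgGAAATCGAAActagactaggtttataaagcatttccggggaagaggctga
In Gbp5 the letters lie on the opposite strand and begin 56 bases before the start, and in Lgals3bp they begin 50 bases before it. Oasl, Ifi47, Psmb9, Tnfsf10 and Oas1f had no match in this window, which says nothing about the factors that act on them.

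**Figure D2:**
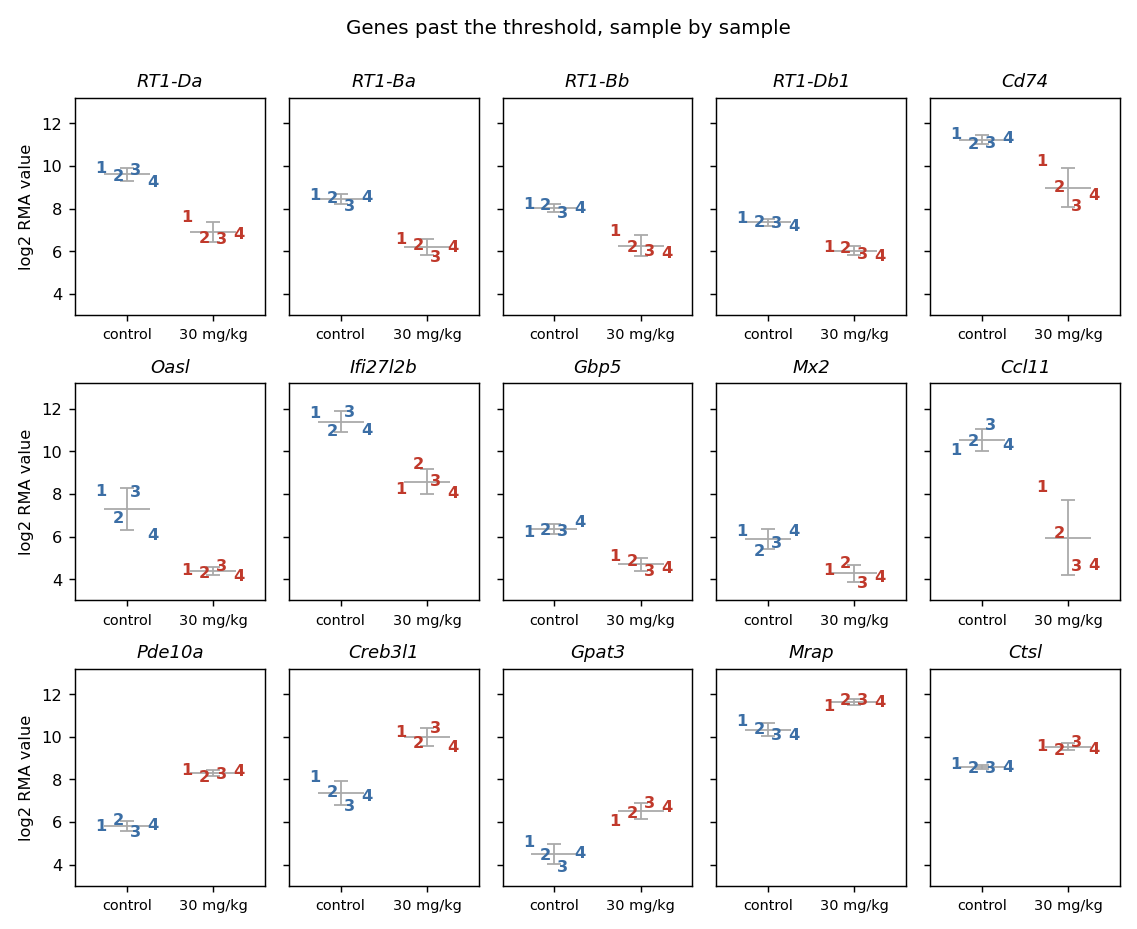
Each panel is 1 gene past the threshold, with the log2 value on the y axis and the replicate number of each sample as the plotting symbol (blue for control, red for 30 mg/kg). Grey bars are the mean ± SD of 4 samples. The class II genes, interferon-induced genes and Ccl11 are lower at 30 mg/kg and Pde10a, Creb3l1, Gpat3, Mrap and Ctsl higher, and replicate 1 is the treated sample nearest to the controls for Cd74 and Ccl11.

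Ccl11, the gene of eotaxin, a chemokine that draws eosinophils, had the largest decrease of all genes. It had 10.05, 10.47, 11.25 and 10.28 in the controls and 8.34, 6.18, 4.61 and 4.65 at 30 mg/kg. Treated replicate 1 was the nearest to the controls, and replicates 3 and 4 lay below the array median. The mean fell 23.7-fold (change -4.57 ± 0.73 SE, adjusted p = 0.0374), and the gene passed in 1 of the 8 fits that left out a sample. Of 41 measured chemokine and receptor genes it alone passed (2.44%, against 0.427% of all genes), and the median change of the list was -0.11. Ccl5 (-1.79, adjusted p = 0.108) and the receptor gene Cxcr4 (-1.12, adjusted p = 0.0534) lay wholly below the controls without passing.

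Leukocyte genes were measured beside these groups, because class II genes are expressed mainly by such cells. Ptprc, the gene of the pan-leukocyte protein CD45, had 6.57, 6.12, 6.53 and 6.39 in the controls and 4.67, 5.04, 5.03 and 5.51 at 30 mg/kg (change -1.34 ± 0.19 SE, adjusted p = 0.0284). Il7r, the gene of the interleukin 7 receptor of lymphocytes, had 4.92, 4.52, 4.80 and 5.17 against 3.47, 3.66, 3.68 and 3.61 (change -1.25 ± 0.16 SE, adjusted p = 0.0183). Aif1, which encodes the macrophage protein Iba1, had 6.79, 6.81, 7.06 and 6.83 against 6.25, 5.48, 5.67 and 5.29 (change -1.20 ± 0.20 SE, adjusted p = 0.0447). All 3 genes were lower in every treated sample, and Il7r lay below the lower quartile of the arrays (3.78 to 3.91) in all 4. Il7r passed in 5 of the 8 fits that left out a sample, Ptprc in 2 and Aif1 in 1. Among 18 macrophage markers, Aif1 passed (5.56%, against 0.427% of all genes) and 14 had a change below 0 (median -0.51). The mean of that list was 6.83 to 7.11 in the controls and 6.62, 6.38, 7.12 and 6.43 in treated replicates 1 to 4, so replicate 3 was as high as the highest control. The 17 lymphocyte markers had none past the threshold, 16 changes below 0 and a median of -0.19, with list means of 4.50 to 4.77 in the controls and 4.25 to 4.38 in the treated samples. Their part in the class II and interferon results was not tested. In tumour pieces, fewer cells of a type and less RNA per cell cannot be told apart.

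Neuropeptide genes held the largest single increases in mean. Of 33 measured, 2 passed, both higher (6.06%, against 0.427% of all genes). In that list 9 lay wholly above the controls (27.3%, against 3.46% of all genes), and the median change was 0.40. Agrp, which encodes the agouti-related peptide, an antagonist at melanocortin receptors, had 5.69, 5.81, 6.31 and 5.86 in the controls and 7.99, 9.38, 9.65 and 10.24 at 30 mg/kg. It rose 10.5-fold (change 3.40 ± 0.41 SE, adjusted p = 0.0142), and every treated sample was well above these controls. The SD of Agrp was 0.27 in these controls. It was 1.65 in the other controls of the series (mean 6.78), which were not part of this comparison. Npy, the gene of neuropeptide Y, which chromaffin cells release with catecholamines, was already abundant, with 10.90, 10.90, 11.37 and 11.08 in the controls, and had 11.92, 12.20, 12.85 and 12.66 at 30 mg/kg (change 1.35 ± 0.22 SE, adjusted p = 0.0389). Agrp was lost without control replicate 3 and without treated replicate 3, and Npy passed in 1 of the 8 fits that left out a sample. The other 7 genes that lay wholly above the controls did not pass. Calca, the gene of calcitonin and its related peptide, had 3.84, 4.07, 4.12 and 3.91 against 5.65, 5.75, 6.26 and 8.66 (change 2.60 ± 0.57 SE, adjusted p = 0.0995).

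Several of them were chosen for display after their values were seen, for the size of their change. Nts, the gene of neurotensin, had 4.12, 4.25, 4.55 and 4.12 in the controls and 4.76, 6.44, 11.64 and 10.59 at 30 mg/kg, the largest mean increase of all genes (change 4.10 ± 1.31 SE, adjusted p = 0.22). Adcyap1, the gene of the peptide PACAP, had 4.40, 3.99, 4.79 and 4.33 against 5.41, 5.59, 11.34 and 10.52 (change 3.84 ± 1.26 SE, adjusted p = 0.235). Nmu, the gene of neuromedin U, had 5.37, 5.02, 5.05 and 5.35 against 6.42, 8.12, 11.57 and 10.21 (change 3.88 ± 0.91 SE, adjusted p = 0.118). In each, treated replicates 3 and 4 were far above replicates 1 and 2. The same 2 samples were highest for Ucn2, a urocortin gene, with 6.07, 5.003, 6.03 and 6.54 against 6.81, 8.42, 10.95 and 10.86 (change 3.35, adjusted p = 0.137), and for Tac1, the gene of substance P, with 3.53, 3.66, 3.55 and 3.75 against 4.11, 3.81, 8.79 and 8.34 (change 2.64, adjusted p = 0.322). Penk, the enkephalin gene, had 8.11, 8.27, 8.02 and 7.68 against 8.13, 9.08, 11.65 and 11.38, so that replicate 1 lay among the controls (change 2.04, adjusted p = 0.253). Gal, the galanin gene, overlapped between the groups, with 9.68, 9.77, 8.05 and 7.90 against 10.29, 8.32, 11.49 and 11.56 (change 1.57, adjusted p = 0.4). Vgf, which encodes a secreted granin-like protein, had 5.93, 5.77, 6.53 and 5.37 against 7.67, 8.79, 10.89 and 10.81, each treated sample above each control, and missed the threshold (change 3.64 ± 0.66 SE, adjusted p = 0.0608). The mean of the neuropeptide list was 5.36 to 5.51 in the controls and 5.77, 5.92, 7.08 and 7.05 in treated replicates 1 to 4.

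**Figure D3:**
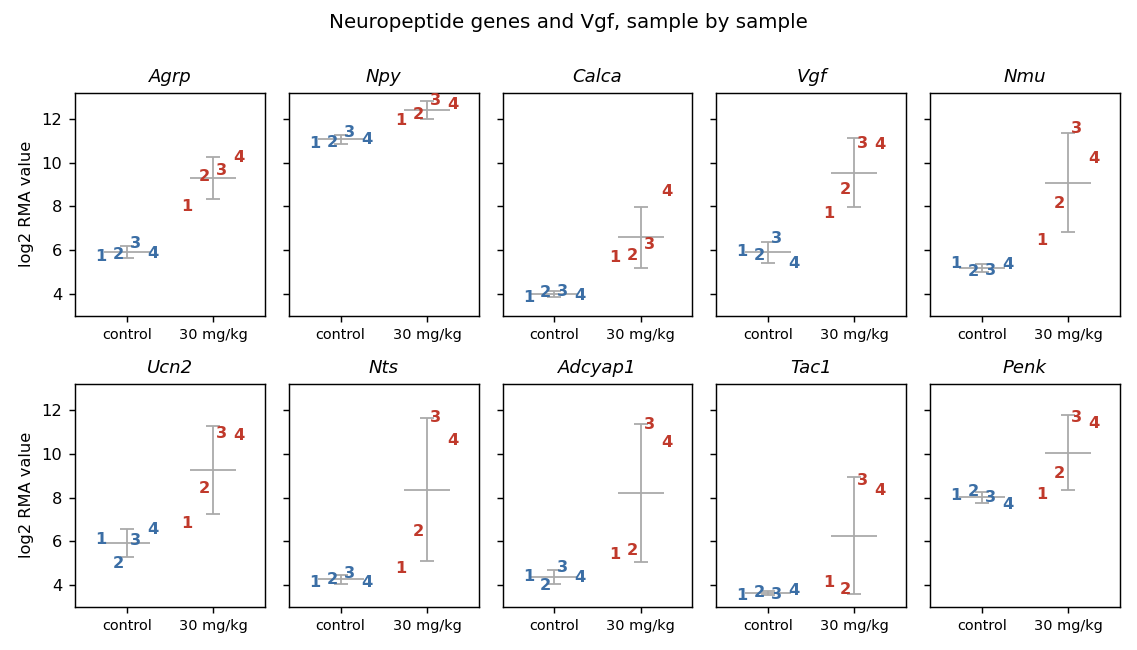
The log2 values of 9 neuropeptide genes and of Vgf are shown by sample, with the replicate number as the symbol (blue for control, red for 30 mg/kg) and grey bars for the mean ± SD of 4 samples. Agrp and Npy passed the threshold. In Nts, Adcyap1, Tac1 and Penk, treated replicates 3 and 4 stand well above treated replicates 1 and 2.

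Other genes separated the same 2 treated samples. Lcn2, the gene of the secreted protein lipocalin 2, had 7.96, 7.004, 7.56 and 7.46 in the controls and 7.88, 9.36, 12.03 and 12.17 at 30 mg/kg (change 2.86, adjusted p = 0.196). S100a8 had 4.36, 4.10, 3.97 and 4.96 against 4.46, 4.09, 8.22 and 7.03 and S100a9 had 4.07, 5.66, 5.38 and 4.81 against 4.92, 4.81, 8.62 and 6.99, which are the abundant calcium-binding proteins of neutrophils. None of the 11 neutrophil markers passed, their list mean was 3.99 to 4.25 in the controls and 4.03, 4.01, 4.86 and 4.61 in treated replicates 1 to 4, and the granule gene Ltf lay below the lower quartile of every array. Pomc, the precursor gene of corticotropin, had 3.80, 4.49, 4.26 and 4.40 against 4.32, 4.25, 7.86 and 5.80. Agtr2, the gene of an angiotensin receptor, went the other way, with 9.07, 9.78, 9.63 and 9.60 against 8.02, 7.94, 4.60 and 4.62 (change -3.23, adjusted p = 0.13). Adipocyte genes stood out in another sample, treated replicate 2, in which the mean of 12 markers was 8.43, against 6.04 to 6.88 in the controls and 6.48, 6.78 and 6.02 in treated replicates 1, 3 and 4. Ucp1, the gene of the uncoupling protein of brown fat, had 3.89, 3.98, 5.59 and 4.16 in the controls and 4.35, 9.45, 7.18 and 3.89 in the treated samples. Globin genes were lower in the treated samples without passing, as Hbb shows with 10.04, 9.84, 11.62 and 9.76 against 5.90, 6.15, 6.45 and 9.41 (change -3.34, adjusted p = 0.102). The part of these markers in the results above was not tested.

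The genes of chromaffin identity did not move together. Slc6a2, the transporter by which the cell takes norepinephrine back, fell, with 8.99, 9.71, 9.34 and 9.80 in the controls and 7.32, 6.31, 6.68 and 7.43 at 30 mg/kg (change -2.52 ± 0.28 SE, adjusted p = 0.0109). No other gene of that kind passed. The 13 chromaffin markers had 9 changes below 0, a median of -0.79 and none past the threshold. Ddc had 10.19, 10.81, 10.90 and 10.87 in the controls and 10.17, 9.04, 7.83 and 8.49 at 30 mg/kg (change -1.81, adjusted p = 0.121), with treated replicate 1 beside the lowest control. The transcription factor genes Hand2 (-1.62, adjusted p = 0.0687), Gata2 (-1.20, adjusted p = 0.101), Gata3 (-0.79, adjusted p = 0.318), Hand1 (-0.82, adjusted p = 0.286) and Isl1 (-0.94, adjusted p = 0.436) all had lower means without passing. Slc18a1, which loads amines into vesicles, had 9.80, 9.93, 9.79 and 9.53 against 9.98, 9.60, 7.51 and 8.37, so that replicates 3 and 4 were low and replicates 1 and 2 were not. By contrast, Th had a change of 0.37 (adjusted p = 0.32), Dbh 0.11 (adjusted p = 0.759), and the granin genes Chga -0.13 (adjusted p = 0.848) and Chgb 0.04 (adjusted p = 0.933). The list mean was 9.56, 10.01, 10.09 and 9.75 in the controls and 9.74, 9.25, 8.89 and 9.12 in the treated samples. The adrenal cortex list, with 15 genes, had list means of 9.48 to 10.21 in the controls and 9.48 to 10.04 at 30 mg/kg.

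Because transcripts of both tissues were abundant, the comparison was repeated with a covariate, the chromaffin mean minus the cortex mean of each sample. This choice was made after the data were seen. The covariate is made of genes tested here, among them Mrap, which passed, and the chromaffin markers had a median change of -0.79. The fit therefore cannot tell the mix of tissues from a change within cells. With the covariate, 8 genes passed the threshold (1 higher, 7 lower), among them Pde10a, RT1-Ba, Trpv2, Ifi27l2b and Ifi47 of the 62. Their changes were 2.52, -2.30, -2.66, -3.15 and -2.69 in that fit, with adjusted p under 0.05. The covariate overlapped between the groups, at -0.65, 0.40, 0.61 and 0.11 in the controls and -0.11, -0.79, -0.69 and -0.37 in the treated samples.

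Gng3, Trpv2, Chrm1, Vamp1, Nrcam, Gpm6a and Clic3 were lower as well. Gng3, a gamma subunit of G proteins, had 8.95, 9.84, 9.58 and 8.99 in the controls and 7.05, 7.81, 6.33 and 5.65 at 30 mg/kg (change -2.63 ± 0.42 SE, adjusted p = 0.0374). Trpv2, a cation channel gene, had 7.94, 6.97, 7.75 and 7.67 against 5.18, 5.27, 5.47 and 4.77 (change -2.41 ± 0.23 SE, adjusted p = 0.00578), with control replicate 2 the lowest of the controls. Chrm1, a muscarinic acetylcholine receptor gene, had 7.43, 8.01, 8.08 and 8.09 against 6.96, 6.46, 6.42 and 6.01 (change -1.44 ± 0.23 SE, adjusted p = 0.0364), while the nicotinic receptor gene Chrna3 did not pass (-1.43, adjusted p = 0.109). Vamp1, a vesicle fusion protein gene, had 7.36, 7.74, 7.58 and 7.47 against 6.23, 6.59, 5.99 and 5.54 (change -1.45 ± 0.22 SE, adjusted p = 0.0296). It alone passed among 40 measured genes of granins and exocytosis (2.5%, against 0.427% of all genes). Nrcam, a cell adhesion gene of neurons, had 8.34, 7.73, 7.86 and 8.27 against 7.02, 6.62, 6.76 and 6.40 (change -1.35 ± 0.19 SE, adjusted p = 0.0284). Gpm6a, which encodes a neuronal membrane glycoprotein, fell by 1.34 (adjusted p = 0.0447), and Clic3, a chloride channel family gene, by 1.49 (adjusted p = 0.0364). When 1 sample was left out, Trpv2 passed in all 8 fits, Clic3 in 3, and Gng3, Chrm1, Vamp1, Nrcam and Gpm6a in 2. None of 44 voltage-gated ion channel genes passed, with 33 changes below 0 and a median of -0.15.

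Among secreted and metabolic genes, Fabp6, which encodes the bile acid-binding protein of the gut, had 7.02, 9.53, 8.68 and 8.90 in the controls and 5.59, 5.34, 6.25 and 5.35 at 30 mg/kg (change -2.90 ± 0.47 SE, adjusted p = 0.038). Apoc4, an apolipoprotein gene, had 10.27, 10.53, 9.33 and 9.15 against 7.88, 8.26, 7.28 and 7.08 (change -2.19 ± 0.36 SE, adjusted p = 0.04). Igfbp5, whose product binds insulin-like growth factors, had 9.22, 8.81, 8.71 and 8.11 against 7.22, 6.45, 6.98 and 5.86 (change -2.09 ± 0.32 SE, adjusted p = 0.0345). In these 3 genes all treated samples lay below all controls, although the controls of Fabp6 spanned 2.5 units. When 1 sample was left out, Fabp6 passed in 1 of the 8 fits, and Apoc4 and Igfbp5 in 2. Rpp25, a subunit gene of ribonuclease P, had 8.32, 8.58, 8.17 and 7.79 against 6.10, 6.08, 6.83 and 5.46 (change -2.10 ± 0.28 SE, adjusted p = 0.0207). Serpinf1, the gene of the secreted factor PEDF, fell by 1.85 (adjusted p = 0.04) and Lgr5, the gene of an R-spondin receptor, fell by 1.69 (adjusted p = 0.0307). Gamt, which makes creatine, fell by 1.78, the sulfurtransferase gene Tst fell by 1.36 and the glutathione transferase gene Gstk1 fell by 1.31. Tacc3, a gene of the mitotic spindle, fell by 1.45, Tppp3, a tubulin-binding protein gene, fell by 1.39, and the cilia gene Cfap300 fell by 1.22. The chromatin remodeller gene Smarca1 fell by 1.35, Bbln fell by 1.28, and the matrix genes Mfap4 and Cilp fell by 1.16 and 1.08. Adjusted p lay between 0.0207 and 0.0458 for the genes of these last 3 sentences. With 1 sample left out, Rpp25 passed in 6 of the 8 fits, and Tppp3, Mfap4 and Cilp in 3. Serpinf1, Lgr5, Gstk1, Cfap300, Smarca1 and Bbln passed in 2 of them, and Gamt, Tst and Tacc3 in 1.

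Pde10a, which degrades cyclic nucleotides, had the smallest p of all genes. Its values were 5.80, 6.08, 5.51 and 5.86 in the controls and 8.43, 8.13, 8.24 and 8.41 at 30 mg/kg. The treated samples lay within about 0.3 of each other and at least 2 units above each of controls 1 to 4, a 5.62-fold rise (change 2.49 ± 0.16 SE, adjusted p = 0.000426). It passed in every fit that left out a sample, with the replicate number as a block and without treated replicates 3 and 4. Creb3l1, which is cleaved from the membrane of the endoplasmic reticulum to enter the nucleus, had 8.11, 7.39, 6.75 and 7.20 against 10.24, 9.72, 10.42 and 9.53 (change 2.61 ± 0.30 SE, adjusted p = 0.0109). It alone passed among 32 genes of the unfolded protein response (3.12%, against 0.427% of all genes), whose median change was 0.22. Enc1, which encodes an actin-binding protein of the nervous system, had 5.57, 5.67, 5.24 and 4.83 against 7.54, 6.37, 7.95 and 8.25 (change 2.199 ± 0.38 SE, adjusted p = 0.0458). Enc1 passed in only 1 of the 8 fits that left out a sample.

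Gpat3, Angptl8, Nceh1, Mrap, Ctsl and Gpnmb were among the genes that rose. Gpat3, an acyltransferase that starts glycerolipid synthesis, had 5.06, 4.44, 3.90 and 4.54 in the controls and 6.02, 6.42, 6.87 and 6.69 at 30 mg/kg (change 2.02 ± 0.26 SE, adjusted p = 0.0197). Angptl8, whose product regulates lipoprotein lipase, had 5.67, 5.03, 5.63 and 5.93 against 7.0, 6.78, 6.74 and 6.98 (change 1.31 ± 0.19 SE, adjusted p = 0.0296), and Nceh1, a cholesterol ester hydrolase gene, rose by 0.88 (adjusted p = 0.035). Mrap, the accessory protein that carries the corticotropin receptor to the cell surface, had 10.75, 10.38, 10.10 and 10.09 against 11.46, 11.73, 11.72 and 11.63 (change 1.31 ± 0.17 SE, adjusted p = 0.0198). The receptor's own gene, Mc2r, did not pass and overlapped between the groups (-0.77, adjusted p = 0.319), and Star, which moves cholesterol into mitochondria, did not pass (0.32, adjusted p = 0.341). Ctsl, a lysosomal protease gene, had 8.73, 8.51, 8.54 and 8.60 against 9.57, 9.40, 9.75 and 9.44 (change 0.95 ± 0.13 SE, adjusted p = 0.0274). Gpnmb, a glycoprotein gene of lysosomes, had 6.92, 6.93, 6.51 and 6.82 against 8.04, 7.96, 8.64 and 8.25 (change 1.43 ± 0.18 SE, adjusted p = 0.0183). These were the 2 of 50 lysosome and autophagy genes that passed (4.0%, against 0.427% of all genes). In that list 7 lay wholly above the controls (14.0%, against 3.46% of all genes) and none below, and 35 changes were above 0 (median 0.17). Gabarapl1, an autophagosome gene, missed the threshold (0.93, adjusted p = 0.0632). When 1 sample was left out, Gpnmb passed in 6 of the 8 fits, Gpat3, Angptl8, Mrap and Ctsl in 3, and Nceh1 in 2.

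The other genes that rose have varied roles. Gadd45b, a stress-induced regulator of kinases, had 7.03, 5.64, 6.11 and 6.41 in the controls and 7.90, 7.92, 8.81 and 8.95 at 30 mg/kg (change 2.10 ± 0.34 SE, adjusted p = 0.038). Nfil3, a transcriptional repressor linked to the circadian clock, had 5.29, 5.67, 6.34 and 5.32 against 7.27, 7.12, 8.22 and 8.10 (change 2.02 ± 0.31 SE, adjusted p = 0.035). In both, treated replicates 3 and 4 were the highest. Flt4, a receptor for vascular endothelial growth factors, had 7.61, 7.19, 6.95 and 7.28 against 8.19, 8.35, 8.47 and 8.34 (change 1.08 ± 0.16 SE, adjusted p = 0.0296). It alone passed among 16 endothelial markers (6.25%, against 0.427% of all genes). That list had 14 changes above 0 and a median of 0.50, with list means of 6.62 to 7.10 in the controls and 7.15 to 7.53 in the treated samples, and its genes Flt1 (0.99, adjusted p = 0.091), Eng (0.99, adjusted p = 0.0904), Kdr (0.48, adjusted p = 0.4) and Cdh5 (0.45, adjusted p = 0.222) did not pass. Pdlim7, a cytoskeletal adaptor gene, rose by 1.28, Luc7l, a splicing factor gene, rose by 1.09, and Sat1, which breaks down polyamines, rose by 1.04. Stard13 rose by 0.88 and Patl1, a gene of messenger RNA decay, rose by 0.80. Adjusted p lay between 0.035 and 0.0463 for these last 5 genes. Stard13 and Patl1 lost the call in each of the 8 fits without a sample. Luc7l passed in 1 of those fits, and Gadd45b, Nfil3, Flt4, Pdlim7 and Sat1 passed in 2.

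Among genes of the pathway that the compound inhibits, none of 38 PI3K, AKT and mTOR components passed (median change 0.06). Of these, 1 lay wholly above the controls (2.63%, against 3.46% of all genes) and 1 wholly below (2.63%, against 3.52%), both under the share of all genes. The latter, Pik3r1, the regulatory subunit gene of PI3K, had 8.58, 8.26, 8.49 and 8.64 in the controls and 7.83, 8.02, 7.31 and 7.40 at 30 mg/kg (change -0.85 ± 0.19 SE, adjusted p = 0.0993). Of 31 FOXO targets and receptor feedback genes, Gadd45b alone passed (3.23%, against 0.427% of all genes). The list mean was 6.75 to 7.02 in the controls and 7.19 to 7.22 in the treated samples. Insr, the insulin receptor gene, had 8.67, 10.27, 9.21 and 8.08 against 10.04, 9.93, 10.06 and 9.39, overlapping because control replicate 2 was the highest of all 8 samples (change 0.80 ± 0.40 SE, adjusted p = 0.441). Depp1, a gene that FOXO factors switch on, had 7.22, 6.55, 6.83 and 6.802 against 8.02, 7.93, 7.22 and 7.20 (change 0.74 ± 0.23 SE, adjusted p = 0.218), and Pdk4, which restrains glucose oxidation, had 7.04, 7.26, 8.05 and 5.27 against 8.57, 9.22, 9.10 and 8.44 (change 1.93 ± 0.50 SE, adjusted p = 0.148).

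Kinase feedback and hormone-responsive genes had higher means without single genes passing. The 20 MAPK feedback genes had 17 changes above 0 and a median of 0.77, with list means of 6.43 to 6.71 in the controls and 7.03, 6.798, 7.52 and 7.74 in treated replicates 1 to 4. Dusp1, a phosphatase of these kinases, had 6.63, 7.32, 7.01 and 6.61 against 7.47, 7.80, 8.86 and 10.09 (change 1.66, adjusted p = 0.203). Dusp6 (1.01, adjusted p = 0.423), Spry2 (1.03, adjusted p = 0.43) and Spred2 (1.12, adjusted p = 0.294) overlapped between the groups, and Spred1 (0.88, adjusted p = 0.0996) did not. Among 24 immediate early genes 20 changes were above 0 (median 0.39), and Nr4a2 had 6.01, 7.04, 7.45 and 6.28 against 7.96, 7.79, 9.08 and 9.30 (change 1.84, adjusted p = 0.105). The 16 glucocorticoid-induced genes had 12 changes above 0, a median of 0.78 and list means of 7.74 to 8.15 in the controls and 8.44 to 8.98 in the treated samples. Among them, Cebpd had 6.58, 6.15, 6.62 and 6.31 against 7.07, 6.98, 8.78 and 8.15 (change 1.33, adjusted p = 0.169), while Tsc22d3, the gene of a glucocorticoid-induced leucine zipper, had a lower mean (-0.81, adjusted p = 0.152). In all 3 lists treated replicates 3 and 4 had the highest means of the 4 treated samples.

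None of 40 genes of mitosis passed, none had a mean level above that of the median gene, 33 changes were below 0 (median -0.15), and list means were 4.10 to 4.29 in the controls and 3.98 to 4.06 in the treated samples. The spindle gene Tacc3, which is not in that list, did pass (change -1.45, adjusted p = 0.0296). Top2a, the topoisomerase gene of dividing cells, had 4.23, 4.41, 5.02 and 4.43 in the controls and 4.01, 3.54, 3.89 and 3.87 at 30 mg/kg (change -0.70 ± 0.19 SE, adjusted p = 0.164), and Rrm2, which makes deoxynucleotides, had 5.24, 4.51, 5.31 and 4.40 against 3.90, 4.27, 4.37 and 4.39 (change -0.63 ± 0.24 SE, adjusted p = 0.288). Both groups of both genes lay at or below the array median of 5.01 to 5.11, apart from control replicates 1 and 3 of Rrm2. Differences can be compressed at such levels, which was not tested here. Of 37 genes of DNA replication and 14 D cyclins and inhibitors none passed, with medians of 0.06 and -0.02. Ccnd1, the cyclin D1 gene, had 6.87, 5.76, 6.61 and 6.41 against 6.11, 5.42, 5.61 and 5.15 (change -0.84 ± 0.27 SE, adjusted p = 0.225), and Cdkn1a, the p21 gene, had 7.16, 5.55, 6.20 and 7.13 against 7.62, 7.37, 8.95 and 9.17 (change 1.76 ± 0.49 SE, adjusted p = 0.165).

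Among genes of lipid synthesis, the desaturase gene Fads1 had 10.97, 10.82, 10.56 and 9.05 in the controls and 8.39, 8.88, 8.31 and 7.85 at 30 mg/kg (change -1.99 ± 0.40 SE, adjusted p = 0.0857). Fads2 had 11.87, 11.45, 10.96 and 10.82 against 10.16, 10.37, 9.24 and 8.30 (change -1.76 ± 0.43 SE, adjusted p = 0.134). Both lay wholly below the controls and did not pass, and the list of 20 genes had a median of 0.04. For 20 cholesterol genes the median was -0.21 with none past the threshold. None of 69 ribosomal protein genes, 40 translation factor genes, 36 ribosome biogenesis genes or 68 oxidative phosphorylation genes passed. Their medians were 0.10, 0.16, 0.17 and -0.12, and 58 of the ribosomal protein genes had a change above 0 whereas 56 of the oxidative phosphorylation genes had one below 0. Sv2c, a synaptic vesicle protein gene, had 7.42, 7.41, 7.82 and 6.40 against 8.94, 8.09, 9.76 and 9.77 (change 1.88 ± 0.41 SE, adjusted p = 0.0993). In all, 28 of the 42 gene lists had no gene past the threshold.

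**Figure D4:**
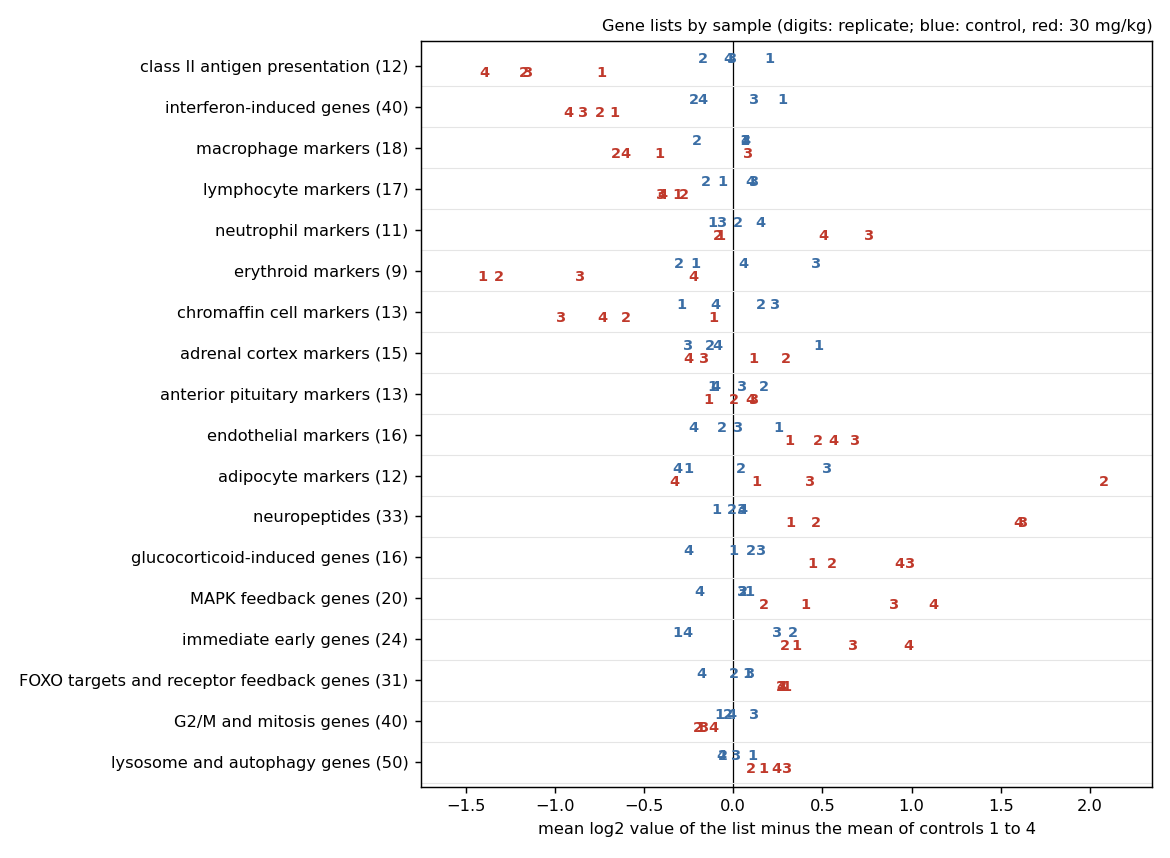
For 18 gene lists (number of measured genes in brackets), the mean log2 value of the list in each sample is drawn relative to the mean of the 4 controls, with the replicate number as the symbol (blue for control, red for 30 mg/kg). Class II, interferon and lymphocyte lists are lower in all 4 treated samples, treated replicates 3 and 4 are the highest for neuropeptide, MAPK feedback and immediate early genes, and treated replicate 2 stands apart for adipocyte markers.

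The lower dose, 20 mg/kg, was given in 6 further samples (4 female, 2 male), which were set against the controls numbered 5 to 7 (1 female, 2 male), so that the 2 comparisons share no sample. In the fit of all 17 samples, 37 genes (0.255%) passed at 20 mg/kg, 3 higher and 34 lower. Of the 62 genes, 6 were past the threshold there too, namely Oasl, Fabp6, Gbp5, Mx2, Ptprc and Il7r, all lower at both doses. Their changes at 20 mg/kg were -2.32, -3.27, -1.20, -1.55, -1.24 and -0.77, with adjusted p between 0.0057 and 0.0334. The sign was shared by 60 of the 62, and the exceptions were Agrp and Enc1. Since the 62 were chosen on the contrast at 30 mg/kg, their larger size there (60 of 62 genes) is a description. Their median change in the direction seen at 30 mg/kg was 1.47 at that dose and 0.69 at 20 mg/kg.

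The difference between the effects of the 2 doses was tested in the same fit. No gene passed (0 of 14506 in limma, with 1171 at an unadjusted p under 0.05). The smallest adjusted p belonged to Ctsl, with a change of 0.95 at 30 mg/kg and 0.02 at 20 mg/kg, a difference of 0.92 ± 0.14 (SE, adjusted p = 0.104). Next were Gpat3, with a difference of 1.753 ± 0.31, and Enc1, with 2.47 ± 0.46 (adjusted p = 0.204 for both). The control sets themselves differed for Ctsl, with a mean of 8.59 in the 30 mg/kg comparison and 9.23 in the 20 mg/kg comparison. The treated means of Ctsl were 9.54 at 30 mg/kg and 9.25 at 20 mg/kg. How much of its difference of effects came from the controls was not tested. For Agrp the change was 3.40 at 30 mg/kg and -0.05 ± 0.80 (SE) at 20 mg/kg, and the difference of 3.45 ± 1.14 did not pass (adjusted p = 0.49). In the 20 mg/kg comparison the SD of Agrp was 1.65 in the controls and 1.62 in the treated samples. Top2a and Rrm2 passed at 20 mg/kg, with changes of -2.25 (adjusted p = 0.00332) and -2.15 (adjusted p = 0.000322), and not at 30 mg/kg. Their difference of effects did not pass either (1.55 ± 0.42, adjusted p = 0.392, and 1.52 ± 0.33, adjusted p = 0.217). With a sex term in this fit, 0 genes passed as well. Dose and sample numbering differ together between the 2 comparisons and cannot be told apart.

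**Figure D5:**
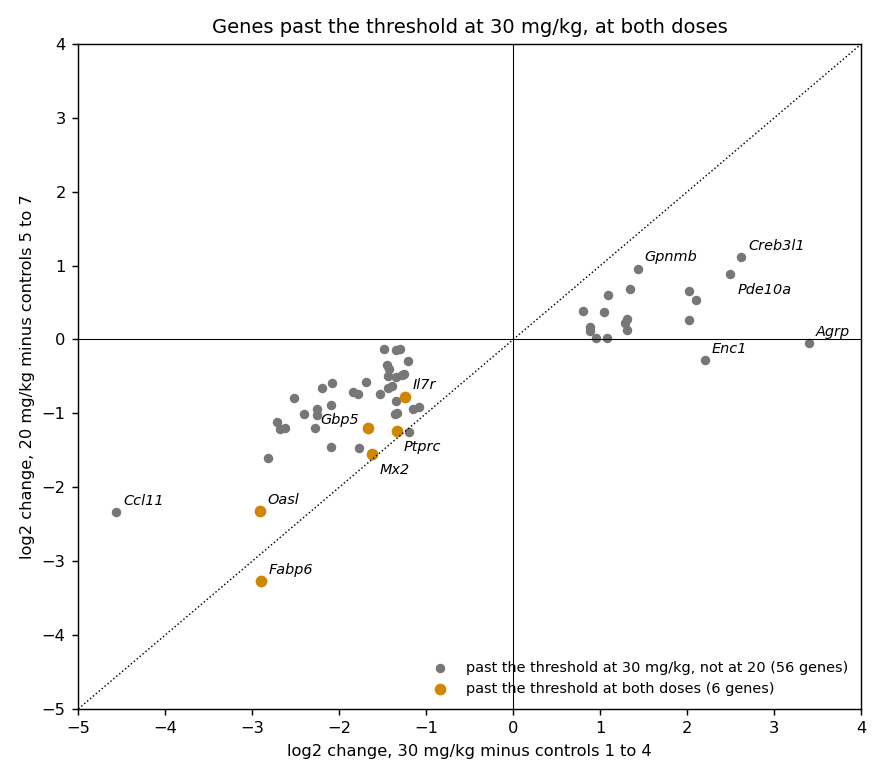
Each point is 1 of the 62 genes past the threshold at 30 mg/kg, with its log2 change there on the x axis and its change at 20 mg/kg, against other controls, on the y axis. The dotted line marks equal changes, and 6 genes (orange) passed at both doses. Agrp and Enc1 have a change below 0 at 20 mg/kg.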

How the data were processed

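Per the labels' protocols, RNA was purified on columns with a DNase step, amplified by a whole-transcriptome kit for small inputs and biotinylated. The log2 values were used as deposited; per the submitters' processing notes they came from RMA (no version given) and Affymetrix Expression Console 1.3.0.187. That method subtracts background, equalises the arrays' distributions and combines the probes of each probe set. The table held 29214 probe sets on 17 arrays. Those with exactly 1 symbol (15310) were kept, and the one with the highest mean over the 17 arrays stood for each gene, which left 14506 genes. Array medians of the 8 samples lay between 5.01 and 5.11, and precision is limited by the 4 arrays per group.

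The main comparison used limma 3.58.1 in R 4.3.3 (lmFit, eBayes, two-sided) on the 8 arrays with no covariate, with Benjamini-Hochberg adjustment over all genes (threshold 0.05). A fit of all 17 arrays in 4 groups gave the 20 mg/kg effect and the difference of effects. The method was tested on simulated data. The 42 gene lists (1143 genes measured) and the samples were chosen with earlier results of these data known. Genes named were the 15 largest changes each way past the threshold, up to 3 genes of each list with the smallest p, a set of pathway, tissue and cell cycle genes, the 3 smallest p for the difference of effects, and others chosen after their values were seen. Promoter sequences (250 bases before to 50 after the start) are RefSeq's, build GRCr8, matched by symbol for 11968 of the 14506 genes; forkhead, cyclic AMP, E-box, sterol and cell cycle motifs were also searched. Same-numbered samples of the groups did not deviate together (correlations of -0.159 to -0.010), so the numbers were not taken as pairs.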

Additional observations from a re-analysis of the deposited data

Results flagged for a closer look

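Within the 2 groups of 4 samples, single values that stood apart from the other 3 by more of the group's range than Dixon's critical value were sought for the genes named; 17 of 394 groups had one, and chance alone flags about 1 in 20. Treated replicate 4 stood high for Luc7l (8.37), Kdm3a (7.66) and Hbb (9.41) and low for Sparc (9.48) and Psmb9 (6.09). Treated replicate 1 stood high for Rtp4 (5.26), Gfra2 (6.41) and Hand1 (8.80), each the treated value nearest to the controls. Treated replicate 2 was high for Phgdh (5.62), which makes serine, and low for the ribosomal protein gene Rps3 (10.46). Control replicate 1 was low for Ddc (10.19) and Chrm1 (7.43) and high for Mc2r (11.45) and Tnfrsf12a (8.25). Control replicate 3 was high for Hbb (11.62) and Ucp1 (5.59), and control replicate 2 for Kdm3a (6.601).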

How the results depend on the processing

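The count of genes past the threshold (62; 19 higher, 43 lower) depended on the fit, while all 62 genes kept their sign under each alternative that measured them. The replicate block left 19 (3 higher, 16 lower), 16 of them among the 62. A sex term, which only sets aside the single male (treated replicate 4), left 16 (4, 12). The fit of 17 arrays gave 529 (276, 253), and 437 (217, 220) with sex. Without treated replicates 3 and 4, a choice made after the data were seen, it was 5 (3, 2), with the chromaffin minus cortex covariate 8 (1, 7), at an adjusted p of 0.01 it was 4 (1, 3), and at 0.10 it was 174 (76, 98). Leaving out 1 sample gave 4 to 122 genes (1 to 40 higher, 3 to 82 lower). The cause of these shifts was not tested. A 2-fold minimum, dimness filters, averaged or all probe sets, median centring, quantile normalization, array weights, and robust or trended variances gave 58 to 82 genes. For the difference of effects, 0 genes passed under each alternative tried.

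Some genes that did not pass changed sign. With 1 sample left out, Cdkn1b ranged from -0.18 to 0.074, Alb from -0.125 to 0.335, Chga from -0.27 to 0.028 and Chgb from -0.006 to 0.079. After quantile normalization Dbh was at -0.014 and Chgb at -0.044. Without treated replicates 3 and 4, S100a8 was at -0.073, S100a9 at -0.116, Perp at -0.018, Slc18a1 at 0.024 and Chga at 0.162. With the covariate, Cdkn1b was at 0.18, Alb at -0.143, Chga at 0.018, Ciita at -0.012 and Cyp21a1 at -0.065. Differences of genes below the array median can be compressed, which was not tested.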
